A study of Mus musculus with 13 samples.

Results

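The genes described here encode the proteins of the cytoplasmic ribosome of mouse oocytes. They were chosen by symbol: every entry named Rpl or Rps followed by a number, with an optional closing letter and digit, together with Rplp0, Rplp1, Rplp2 and Rpsa. Entries with the pseudogene mark -ps in the symbol and the Rps6k kinases were left out. Rps4y2 passed by its symbol, though RefSeq lists it as a transcribed pseudogene. The rule took 84 of 23235 genes, of which 51 belong to the large subunit and 33 to the small subunit. It also took 7 paralogues named after a parent gene (Rpl3l, Rpl7l1, Rpl10l, Rpl22l1, Rpl39l, Rps27l and Rps4y2), which are described apart from their parents.

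The series compared MTR4-null with WT oocytes, each separated by micromanipulation into nucleus and cytoplasm. Poly(A) RNA was copied with Smart-seq2, a low-input method, from 10 nuclei or 10 cytoplasms per library. The labels list 2 libraries of MTR4-null nuclei and 2 of MTR4-null cytoplasms, all at day 21, 2 of WT nuclei at day 14 and 3 at day 21, and 2 of WT cytoplasms at each day. The labels give no strain and do not say how the null allele was made or which Cre, if any, was used. The deposited table holds 1 column for each genotype and compartment and none for a single library. Its WT columns name no day, so genotype and age cannot be told apart. No difference given here can be set against a spread between replicates, and none was tested.

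A ribosome joins a small subunit, which reads the mRNA, to a large subunit, which forms the peptide bond. Most ribosomal proteins are needed in about equal number. Ribosomal protein mRNAs of mammals are abundant and short, and most begin at a run of pyrimidines, the terminal oligopyrimidine tract, through which their translation is switched as a group. MTR4 is the helicase that hands nuclear RNA to the exosome, the 3' to 5' RNA-degrading complex. Growing oocytes store ribosomes and mRNA for the embryo.

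The values are FPKM by name, a unit per transcript length, but the columns are not on 1 scale. Their totals were 1396105 in the MTR4-null nucleus, 594034 in the WT nucleus, 3007242 in the MTR4-null cytoplasm and 6637345 in the WT cytoplasm, and read depth is unknown. Differences between columns were therefore taken relative to the median gene: a geometric mean over the 4 columns was formed for each gene, each column was scaled by its median ratio to it, 1 was added and log2 differences were formed. The 14240 genes that reached 1 in 2 or more columns were kept. Such differences cannot show a change in total RNA, and in these pooled preparations fewer cells of a type and less RNA per cell cannot be told apart. Skiv2l2, which encodes MTR4, had deposited values of 3.54 in the MTR4-null nucleus, 13.3 in the WT nucleus, 4.36 in the MTR4-null cytoplasm and 187 in the WT cytoplasm. All 14 oocyte markers were at 1 or above in every column and together held 2.15% to 3.79% of the column totals. The 18 granulosa cell markers held 0.00199% to 0.0101%, and 9 markers of other ovarian and blood cells held 0.00105% to 0.0027%, with Hbb-b1 at 0 in every column. Of the granulosa cell markers, Inha, Inhbb, Foxl2, Fst and Gja1 were at 0 in the MTR4-null nucleus and Amh and Amhr2 in the WT nucleus. None was at 0 in either cytoplasm, with 18 at 1 or above in MTR4-null and 16 in WT. Inha had 86.8 in the MTR4-null and 253 in the WT cytoplasm. Pecam1, of the other cell markers, had 30.1 and 173 there.

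Promoter sequence was looked up in RefSeq (GRCm38.p6) for all members, and 63 of 84 had an entry. A run of at least 8 C or T bases, read on the strand of the gene and reaching within 30 bases of the annotated start, stood in 35 of these 63 (55.6%), against 6965 of all 27025 genes with a promoter entry (25.8%). The following stretches cover 15 bases before and 25 bases after the start, with the longest run of C and T in capitals. The first 6 show the tract in members of both subunits, and the last 2 are the paralogues with the largest genotype differences, whose windows hold no run of 8. Of the 6 paralogues with an entry, 3 held such a run, as did 32 of the 57 other members. The run is a match of letters, and transcription starts were not measured here.
Rpl35, chr2:39005107-39005146, minus strand: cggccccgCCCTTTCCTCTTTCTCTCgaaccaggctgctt
Rpl7a, chr2:26910792-26910831, plus strand: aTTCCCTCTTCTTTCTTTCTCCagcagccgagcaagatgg
Rpl15, chr14:18270962-18271001, minus strand: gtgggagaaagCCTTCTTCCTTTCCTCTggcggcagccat
Rpl38, chr11:114668565-114668604, plus strand: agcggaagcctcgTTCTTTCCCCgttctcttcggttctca
Rps18, chr17:33955641-33955680, minus strand: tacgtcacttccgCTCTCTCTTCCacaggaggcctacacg
Rps27, chr3:90213624-90213663, minus strand: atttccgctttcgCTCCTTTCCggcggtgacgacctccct
Rpl10l, chr12:66284377-66284416, minus strand: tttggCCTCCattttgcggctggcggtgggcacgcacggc
Rpl7l1, chr17:46782632-46782671, minus strand: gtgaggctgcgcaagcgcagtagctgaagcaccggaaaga

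Ribosomal protein genes have many near-identical copies in the mouse genome, and a read from one can be counted for another. In GENCODE M21 transcripts, a median of 49.1% of the 50-base windows of a kept member also occurred in another gene, and 40 of 83 kept members shared at least 50% of their windows. For 6 members the deposited table holds an entry of its own for such a copy. The 4 pairs that bear most on the results are shown here by 60 bases of their coding sequence, with the base that differs in capitals. Rps27 on chromosome 3 and Gm9846 on chromosome 9, which RefSeq now names Rps27rt, had the same 252 coding bases, so coding reads cannot be assigned to one of them by sequence.
Rps27: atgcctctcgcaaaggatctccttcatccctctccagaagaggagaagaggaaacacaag
Gm9846: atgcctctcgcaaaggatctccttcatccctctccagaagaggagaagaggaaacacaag
Rpl34: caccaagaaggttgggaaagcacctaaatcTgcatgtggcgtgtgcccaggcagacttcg
Rpl34-ps1: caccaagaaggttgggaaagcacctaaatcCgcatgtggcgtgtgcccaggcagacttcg
Rpl26: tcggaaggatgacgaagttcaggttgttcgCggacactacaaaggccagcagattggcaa
Gm15772: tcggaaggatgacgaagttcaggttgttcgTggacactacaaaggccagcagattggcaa
Rpl30: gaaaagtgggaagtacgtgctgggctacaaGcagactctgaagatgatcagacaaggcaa
Gm12191: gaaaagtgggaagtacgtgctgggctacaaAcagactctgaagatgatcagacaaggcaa

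Rpl34 on chromosome 3 differed from Rpl34-ps1 on chromosome 6 at 2 of 351 coding bases. Rpl26 on chromosome 11 differed from Gm15772 on chromosome 5 at 2 of 435, and Rpl30 on chromosome 15 from Gm12191 on chromosome 11 at 1 of 345. The other 2 pairs were Rpl22l1 with Gm15421, at 2 of 366 bases, and Rps15a with Gm11968, at 5 of 390.

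Ribosomal protein mRNAs were among the most abundant poly(A) RNAs in both compartments and both genotypes. The members held 3.30% of the column total in the MTR4-null nucleus, 3.81% in the WT nucleus, 5.04% in the MTR4-null cytoplasm and 5.26% in the WT cytoplasm. Small RNA genes took between 2.65% and 21.2% of the totals, and without them the shares were 4.03%, 4.84%, 5.41% and 5.40% in the same column order. The median member stood at percentile 97.2, 97.3, 97.7 and 98.0 of the genes above 0, in the same order. In the top 10% of genes stood 73 of the 84 members in the MTR4-null nucleus, 72 in the WT nucleus, 76 in the MTR4-null cytoplasm and 73 in the WT cytoplasm.

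The filter on low values kept 83 of the 84 members. Rpl3l, a relative of Rpl3 known from striated muscle, did not pass, with 0.755 in the MTR4-null nucleus, 0 in the WT nucleus, 6.37 in the MTR4-null cytoplasm and 0 in the WT cytoplasm. It is listed at 0 in both WT columns, so no fold was formed for it.

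**Figure D1:**
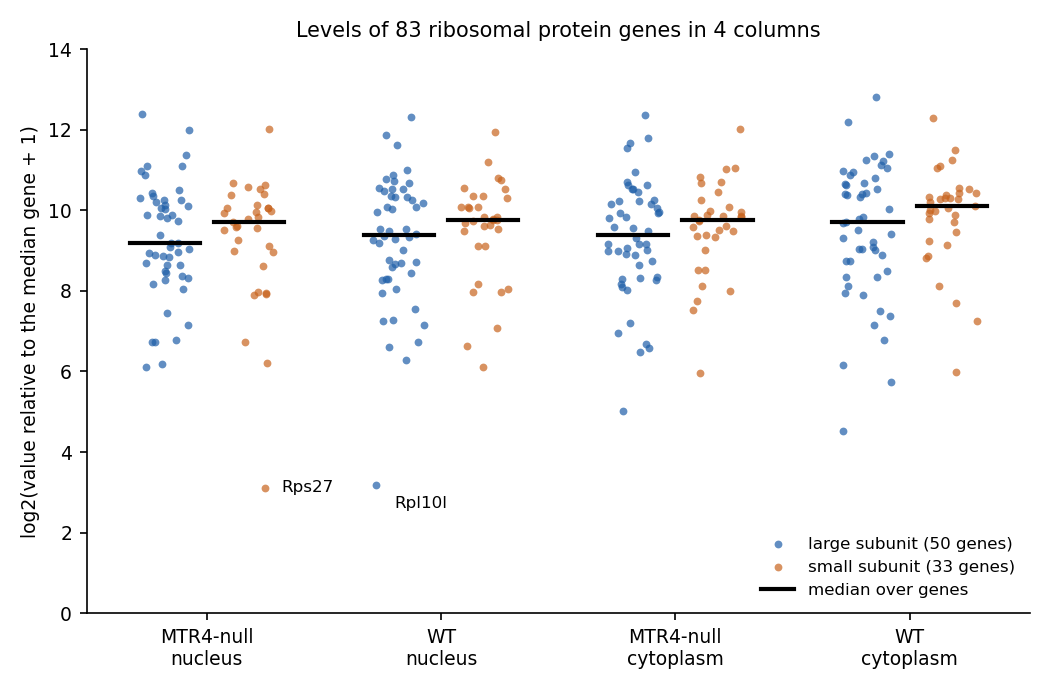
Level of each of 83 kept ribosomal protein genes (vertical axis, log2 of the value relative to the median gene plus 1) in the 4 columns, with large subunit genes in blue, small subunit genes in orange and black bars for the median over genes. Most genes lie in 1 band in all columns, while Rps27 in the MTR4-null nucleus (deposited value 4.51) and Rpl10l in the WT nucleus (2.27) lie far below it.

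Levels ranged widely among the members. The highest was Rpl41, which encodes the smallest ribosomal protein, with deposited values of 3183 in the MTR4-null nucleus, 1418 in the WT nucleus, 9742 in the MTR4-null cytoplasm and 24936 in the WT cytoplasm. Rps29, a zinc-binding protein of the small subunit, had 2487 in the MTR4-null nucleus, 1093 in the WT nucleus, 7643 in the MTR4-null cytoplasm and 17289 in the WT cytoplasm. Rpl35, which lies at the exit of the peptide tunnel, had 2414, 1038, 6021 and 16347 in the same column order. The lowest percentile of these 3 genes in any column was 99.5. Next in mean level were Rpl39, a protein of the tunnel wall (1197, 885, 6588 and 8247), and Rpl38, which mouse mutants tie to the translation of Hox mRNAs (1586, 572, 5580 and 7011).

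At the low end, apart from Rpl3l, stood Rpl10l, Rps15a, Rpl22 and Rpl26. The place of Rpl26 rests on its entry alone: its sum with the copy Gm15772 lay 0.51 to 0.79 above the member median on the log2 scale in the 4 columns. Rps15a, a small subunit protein, had 43.1 in the MTR4-null nucleus, 18.9 in the WT nucleus, 114 in the MTR4-null cytoplasm and 217 in the WT cytoplasm. Rpl22, an RNA-binding protein of the large subunit, had 62.7, 21.4, 188 and 243 in the same column order. Both kept to percentiles 76.1 to 84.1 in all 4 columns, so they were low among ribosomal protein genes in every one.

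The order of the members was shared by the columns. Over the 83 kept members, Spearman's rho was 0.935 between the nuclei and 0.849 between the cytoplasms, against 0.836 and 0.816 over all kept genes. Between nucleus and cytoplasm it was 0.919 in MTR4-null and 0.933 in WT oocytes. These are descriptions across genes, which share libraries and a counting method and are not independent replicates. Members with longer coding sequence tended to have lower values, with a rho of -0.33 over 82 members. The share of windows found in other genes had a rho of 0.022 with the level over the 83 kept members.

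Large subunit members summed to more than small subunit members in every column. The sum over the 51 large subunit members was 1.60 times that over the 33 small subunit members in the MTR4-null nucleus, 1.5 times in the WT nucleus, 1.5 times in the MTR4-null cytoplasm and 1.48 times in the WT cytoplasm. The median gene went the other way. On the log2 scale, the large subunit median minus the small subunit median was -0.51 in the MTR4-null nucleus, -0.37 in the WT nucleus, -0.37 in the MTR4-null cytoplasm and -0.40 in the WT cytoplasm. Without the paralogues it was -0.41, -0.25, -0.25 and -0.29 in the same column order. Means over genes differed less, by 0.0014, -0.28, -0.25 and -0.38, so in the MTR4-null nucleus the median and the mean gave different signs. The small subunit genes were also the tighter group in 3 columns, with an SD over genes on the log2 scale of 1.28 in the WT nucleus, 1.18 in the MTR4-null cytoplasm and 1.24 in the WT cytoplasm, against 1.63, 1.47 and 1.68 for the large subunit genes. In the MTR4-null nucleus, where Rps27 lay far below the others, the small subunit SD was 1.62 and the large subunit SD 1.43.

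The first comparison asked whether MTR4 loss altered nuclear ribosomal protein mRNAs. Relative to the median gene, these mRNAs were close to equal in MTR4-null and WT nuclei: 3 of the 83 kept members were at least 2-fold higher (Rpl10l, Rpl7l1 and Rpl9) and 2 at least 2-fold lower (Rps27 and Rpl22l1). Of all 14240 kept genes, 25.8% were at least 2-fold higher and 16.2% at least 2-fold lower. The members' median log2 difference was -0.04, with an interquartile range of 0.55, against a median of 0.06 and an interquartile range of 1.70 over all kept genes. All kept genes include many of low value, and here and below no genes of like level were set beside the members. The large subunit median was -0.07 and the small subunit median -0.03. On the deposited values, where the median over all kept genes lay at 0.91, 44 members were at least 2-fold higher and 1 lower, against 46.3% and 3.69% of all kept genes.

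Rpl9, a large subunit protein near the base of the stalk, had 182 in the MTR4-null nucleus and 27.0 in the WT nucleus, a relative difference of 1.65. It was also higher in the cytoplasm, with 876 in MTR4-null and 572 in WT, a relative difference of 1.52. In 93.3% of its windows the Rpl9 sequence also occurred in other genes, and no copy entry was found for it by the measure given above. Among members that are not paralogues, Rpl9 alone passed 2-fold upward in nucleus and cytoplasm alike.

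In the cytoplasm more members passed 2-fold than in the nucleus. There 5 of 83 kept members were at least 2-fold higher and 9 at least 2-fold lower, against 24.2% and 18.6% of all kept genes. The members' median relative difference was -0.32, against 0.06 over all kept genes, and 59 of 83 members lay below 0. Their interquartile range was 0.90, against 1.70 over all kept genes. All but 1 of the 14 were large subunit genes, with Rps4y2 the exception. On the deposited values, where the median over all kept genes was -0.79, 3 members were at least 2-fold higher and 54 lower, against 14.9% and 43.7% of all kept genes. When the columns were scaled by their totals without small RNA genes, the members' median was -0.02, and after quantile normalization it was -0.04, so the lower median rests on the scale chosen. The balance of the counts rests on it too, with 6 members higher and 5 lower by totals, and 9 higher and 7 lower after quantile normalization.

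Among the members lower in the MTR4-null cytoplasm, Rpl3, a core protein near the peptidyl transferase centre, had the largest difference apart from Rpl26. Rpl3 had 174 in the MTR4-null cytoplasm and 1250 in the WT cytoplasm, a relative difference of -1.92. In the nuclei it had 84.2 in MTR4-null and 42.5 in WT, a relative difference of -0.11. Its windows were shared with other genes to 85.6%.

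Rplp0, the base of the stalk that recruits translation factors, had 955 in the MTR4-null cytoplasm and 4428 in the WT cytoplasm, a relative difference of -1.31. Rpl4, which lines the peptide tunnel, had 791 in the MTR4-null and 3607 in the WT cytoplasm, a relative difference of -1.28, beside 275 in the MTR4-null nucleus and 189.9 in the WT nucleus, and shared 16.5% of its windows. Both genes passed 2-fold in the cytoplasm and not in the nucleus. Rpl21, a large subunit protein, had 239 in the MTR4-null nucleus, 162 in the WT nucleus, 580.4 in the MTR4-null cytoplasm and 2513 in the WT cytoplasm, a relative difference in the cytoplasm of -1.21. Rpl37, a zinc-binding large subunit protein, had 864, 525, 2212 and 9006 in the same column order, with -1.12. Rpl13, also of the large subunit, had -1.06. In the nuclei these 5 genes lay between -0.56 and 0.03, so none of them reached 2-fold there. Of the 5, Rplp0 alone stayed past 2-fold in the cytoplasm when columns were scaled by totals without small RNA genes (-1.01), where Rpl4 had -0.982, Rpl21 -0.906, Rpl37 -0.819 and Rpl13 -0.763. After quantile normalization Rpl21 (-0.936) and Rpl13 (-0.836) were under 2-fold. The difference between the compartments is taken up again with the nuclear share.

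Rpl23, a large subunit protein, had 941 in the MTR4-null cytoplasm and 859 in the WT cytoplasm, a relative difference of 1.04 that only just passed 2-fold. In the nuclei it had 247 in MTR4-null and 96.7 in WT, a relative difference of 0.26.

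**Figure D2:**
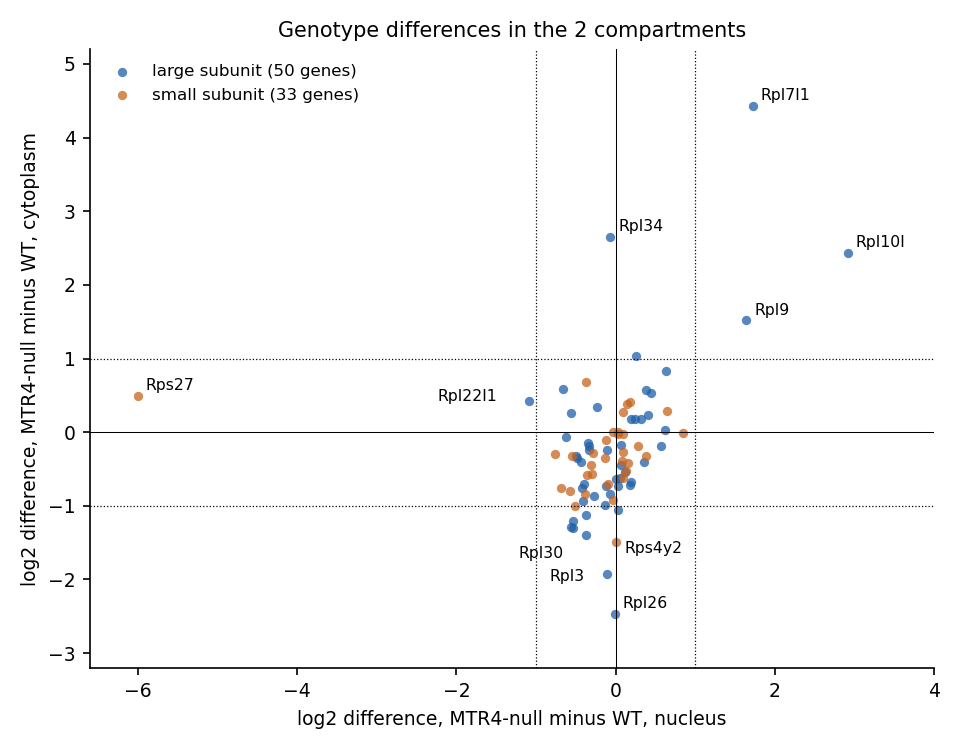
Log2 difference of MTR4-null minus WT relative to the median gene, in the nucleus (horizontal axis) and in the cytoplasm (vertical axis), for 83 kept ribosomal protein genes, with dotted lines at 2-fold. Most genes cluster near 0 in the nucleus and slightly below 0 in the cytoplasm, while Rpl7l1, Rpl10l and Rpl9 lie past 2-fold in both and Rps27 lies at -6.00 in the nucleus.

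Several members with large departures had a copy with an entry of its own. Rps27, a zinc-binding small subunit protein, had 4.51 in the MTR4-null nucleus, 153 in the WT nucleus, 1832 in the MTR4-null cytoplasm and 2432 in the WT cytoplasm. Its relative difference was -6.00 between the nuclei and 0.50 between the cytoplasms. The copy Gm9846 had 1505 in the MTR4-null nucleus, 340 in the WT nucleus, 4469 in the MTR4-null cytoplasm and 7039 in the WT cytoplasm. The MTR4-null nucleus was therefore low for Rps27 and high for its copy.

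Added together, Rps27 and Gm9846 gave 1509 in the MTR4-null nucleus, 493 in the WT nucleus, 6301 in the MTR4-null cytoplasm and 9471 in the WT cytoplasm. The relative difference of the sum was 0.52 between the nuclei and 0.32 between the cytoplasms. Rps27 itself held 0.299% of the sum in the MTR4-null nucleus, against 31.1% in the WT nucleus, 29.1% in the MTR4-null cytoplasm and 25.7% in the WT cytoplasm. Sums were added after the values were seen, and they add values per length of entries of unlike length.

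Rpl34, a large subunit protein, had 565 in the MTR4-null nucleus, 278 in the WT nucleus, 1662 in the MTR4-null cytoplasm and 493 in the WT cytoplasm. Relative to the median gene, the WT cytoplasm was the low column. Its copy Rpl34-ps1 had 248, 174, 1095 and 5260 in the same column order. The relative difference in the cytoplasm was 2.65 for Rpl34, -1.36 for Rpl34-ps1 and -0.15 for their sum. In the nucleus it was -0.07, -0.58 and -0.24 for the same entries.

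Rpl26, a protein of the tunnel exit, had 62.6 in the MTR4-null nucleus, 29.6 in the WT nucleus, 58.6 in the MTR4-null cytoplasm and 621 in the WT cytoplasm. Its copy Gm15772 was higher in all of them, with 585, 351, 2096 and 4686 in the same column order, so that Rpl26 held between 2.72% and 11.7% of the sum. The relative difference in the cytoplasm was -2.46 for Rpl26, -0.25 for Gm15772 and -0.39 for the sum. Rpl30, which takes part in a bridge between the subunits, had 164 in the MTR4-null and 819 in the WT cytoplasm, a relative difference of -1.40, and 65.3 in the MTR4-null and 39.6 in the WT nucleus. In the same cytoplasms its copy Gm12191 had 1603 and 1575, a relative difference of 0.93, and the sum had one of 0.47. Between the nuclei the sum differed more than Rpl30 itself, at -0.72 against -0.37, and its nuclear share was -1.18, against 1.03 for Rpl30.

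Over the 6 pairs, the members alone ranged from -6.00 to 0.09 in the nucleus and from -2.46 to 2.65 in the cytoplasm. The sums ranged from -1.01 to 0.52 in the nucleus and from -0.39 to 0.47 in the cytoplasm. A sum mostly follows its larger entry, so it can vary little whatever the smaller entry does. The 1 sum still at least 2-fold lower in the nucleus was that of Rpl22l1, whose copy Gm15421 held little of it. In the nuclear share, 2 of the 6 sums were still past 2-fold, those of Rpl22l1 and Rpl30. Of the 19 members past 2-fold in any comparison, 5 had a copy entry by the measure given above. Of the 64 others 1 did, Rps15a. The median share of windows found in other genes went the other way, at 37.9% for the 19 and 52.5% for the 64. Rplp2-ps1 and Rps19-ps3, entries named after Rplp2 and Rps19, were not among the copy entries by that measure. Rps19-ps3 had 30.4 in the MTR4-null nucleus, 11.1 in the WT nucleus, 0 in the MTR4-null cytoplasm and 231 in the WT cytoplasm. The sources used here do not give how reads shared by copies were assigned, and the part of that step in these differences was not tested.

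**Figure D3:**
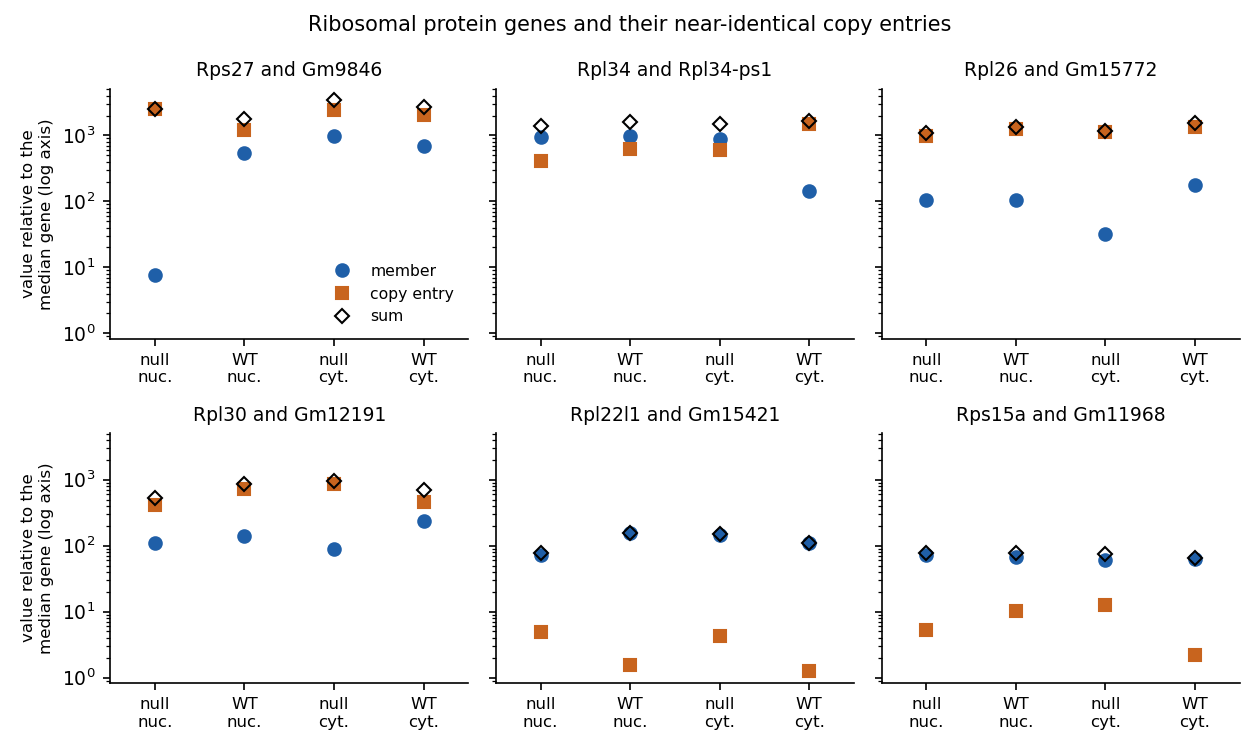
Value relative to the median gene (vertical axis, log scale) in the 4 columns for 6 ribosomal protein genes (blue circles), the table entry of their near-identical copy (orange squares) and the sum of both (open diamonds). The sums of Rps27, Rpl34, Rpl26 and Rpl30 with their copies vary less between columns than the members do.

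Of the 6 paralogues that passed the filter, 5 were at least 2-fold higher or lower in some comparison, with Rpl39l the exception. Of the 77 members that are not paralogues, 14 were, and of all 14240 kept genes 67.9% were. Rpl7l1, a relative of Rpl7, had 1295 in the MTR4-null nucleus, 183 in the WT nucleus, 2114 in the MTR4-null cytoplasm and 180.1 in the WT cytoplasm. Both MTR4-null columns were thus above both WT columns, and the relative difference was 1.73 between the nuclei and 4.43 between the cytoplasms. Its parent Rpl7 had 271, 107, 1322 and 2184 in the same column order, with relative differences of 0.25 and 0.18. The Rpl7l1 entry shared 9.03% of its windows with 252 other genes, the most genes of any member, so a short stretch of it recurs widely in the transcriptome.

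Rpl10l, an autosomal copy of the X-linked Rpl10 known for its role in the testis, had 40.5 in the MTR4-null nucleus, 2.27 in the WT nucleus, 227 in the MTR4-null cytoplasm and 75.8 in the WT cytoplasm. Its relative difference was 2.92 between the nuclei and 2.43 between the cytoplasms. It held 6.04% of the value of Rpl10 in the MTR4-null nucleus, against 0.574% in the WT nucleus, and 7.78% in the MTR4-null cytoplasm, against 1.22% in the WT cytoplasm. Rpl10 itself, which joins the large subunit late in its assembly, had 670.3, 396, 2914 and 6199 in the same column order, with relative differences of -0.33 and -0.18. Rpl10l shared 7.60% of its windows with 1 other gene.

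Rpl22l1, the relative of Rpl22, had 43.0 in the MTR4-null nucleus, 43.2 in the WT nucleus, 271 in the MTR4-null cytoplasm and 378 in the WT cytoplasm, with relative differences of -1.09 and 0.42. It was above Rpl22 in 3 columns and below it in the MTR4-null nucleus. Rps4y2 is listed in RefSeq as Rps4l, a transcribed pseudogene. It had 149.7 in the MTR4-null nucleus, 69.6 in the WT nucleus, 396 in the MTR4-null cytoplasm and 2092 in the WT cytoplasm, with relative differences of 0.01 and -1.49. Its parent Rps4x, a small subunit protein, had relative differences of -0.54 and -0.32.

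Rpl39l and Rps27l were abundant in oocytes. Rpl39l, known from the testis of mice, had 208 in the MTR4-null nucleus, 143 in the WT nucleus, 1053 in the MTR4-null cytoplasm and 1644 in the WT cytoplasm, which was 16.0% to 19.9% of Rpl39 in the 4 columns. Rps27l had 792, 481, 3833 and 4497 in the same column order, more than the Rps27 entry and less than the sum of Rps27 and Gm9846 in every column. Its relative difference was -0.38 between the nuclei and 0.68 between the cytoplasms. Rpl36al, a relative of Rpl36a that the rule did not take, was likewise above its parent in every column, at 236% to 273% of it, and had relative differences of -0.17 and -0.02.

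**Figure D4:**
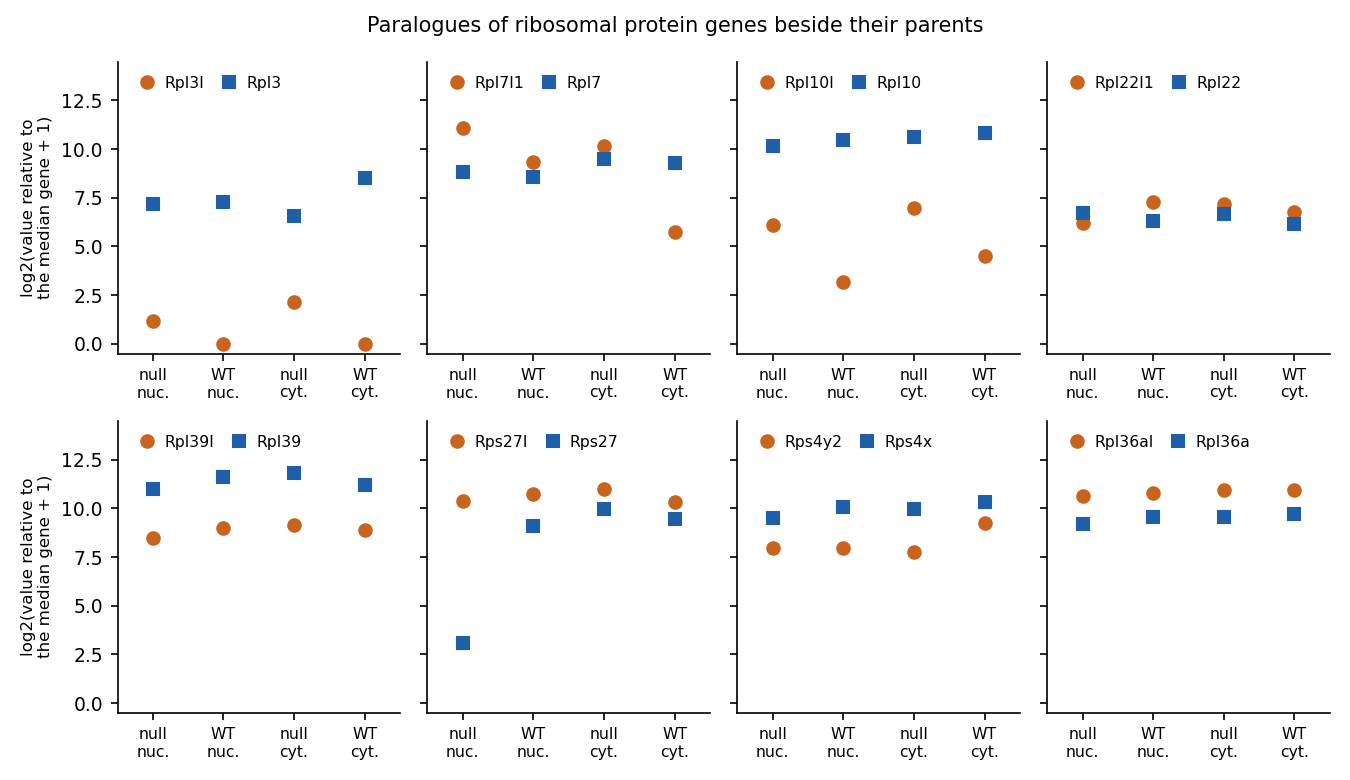
Log2 of the value relative to the median gene plus 1 (vertical axis) in the 4 columns for 8 paralogues (orange circles) and their parent genes (blue squares). Rpl7l1 and Rpl10l lie higher in the MTR4-null columns than in the WT columns, while their parents Rpl7 and Rpl10 vary less.

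The stalk of the large subunit is built from Rplp0, Rplp1 and Rplp2, and its mRNAs had unlike differences. Rplp1 had 1311 in the MTR4-null nucleus, 413 in the WT nucleus, 3652 in the MTR4-null cytoplasm and 7801 in the WT cytoplasm, with relative differences of 0.57 between the nuclei and -0.19 between the cytoplasms. Rplp2 had 728, 326, 2229 and 4716 in the same column order, with relative differences of 0.07 and -0.17. These are for its entry alone. The entry Rplp2-ps1 had 1521, 273, 1779 and 9.49 in the same column order, with relative differences of 1.39 and 8.01. Rplp0 had 296 in the MTR4-null nucleus and 200.1 in the WT nucleus, a relative difference of -0.53, beside the -1.31 in the cytoplasm given above. Rpsa, a small subunit protein also known as a laminin receptor, had 235, 70.2, 468 and 716, with relative differences of 0.64 and 0.29. Of Rplp0, Rplp1, Rplp2 and Rpsa, Rplp0 in the cytoplasm alone passed 2-fold.

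The next comparisons set nucleus against cytoplasm. In MTR4-null oocytes the members lay evenly about the median gene on this scale. Of 83 members, 1 was at least 2-fold higher in the nucleus (Rpl26) and 2 at least 2-fold lower (Rps27 and Rpl22l1). Of all kept genes, 12.4% were higher and 8.83% lower. The members' median difference was 0.02, against -0.01 over all kept genes. On the deposited values, where the median over all kept genes was -1.48, none was higher and 80 were lower, against 2.91% and 71.9% of all kept genes.

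In WT oocytes the members sat slightly toward the cytoplasm. There 2 of 83 were at least 2-fold higher in the nucleus (Rpl7l1 and Rpl34) and 4 at least 2-fold lower (Rpl10l, Rps4y2, Rpl3 and Rps23), against 9.73% and 7.46% of all kept genes. The median difference was -0.36, against -0.10 over all kept genes, and 69 of 83 members lay below 0. Large and small subunit medians were both near this value, at -0.36 and -0.35. Under scaling by totals without small RNA genes, the MTR4-null median was instead below the WT median. The contrast between the genotypes thus rests on the scale chosen. On the deposited values, where the median over all kept genes was -3.27, none was higher and 81 were lower, against 1.74% and 91.2% of all kept genes.

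Rps23, which lies at the decoding centre of the small subunit, had 37.7 in WT nuclei, against 965 in WT cytoplasms, a relative difference of -1.04. In MTR4-null oocytes the nucleus had 146, against 509.9 in the cytoplasm, a relative difference of -0.17. Rpl34, whose WT cytoplasm value was low beside its copy, had a relative difference of 2.80 between the WT nucleus and the WT cytoplasm and of 0.08 between the MTR4-null ones.

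**Figure D5:**
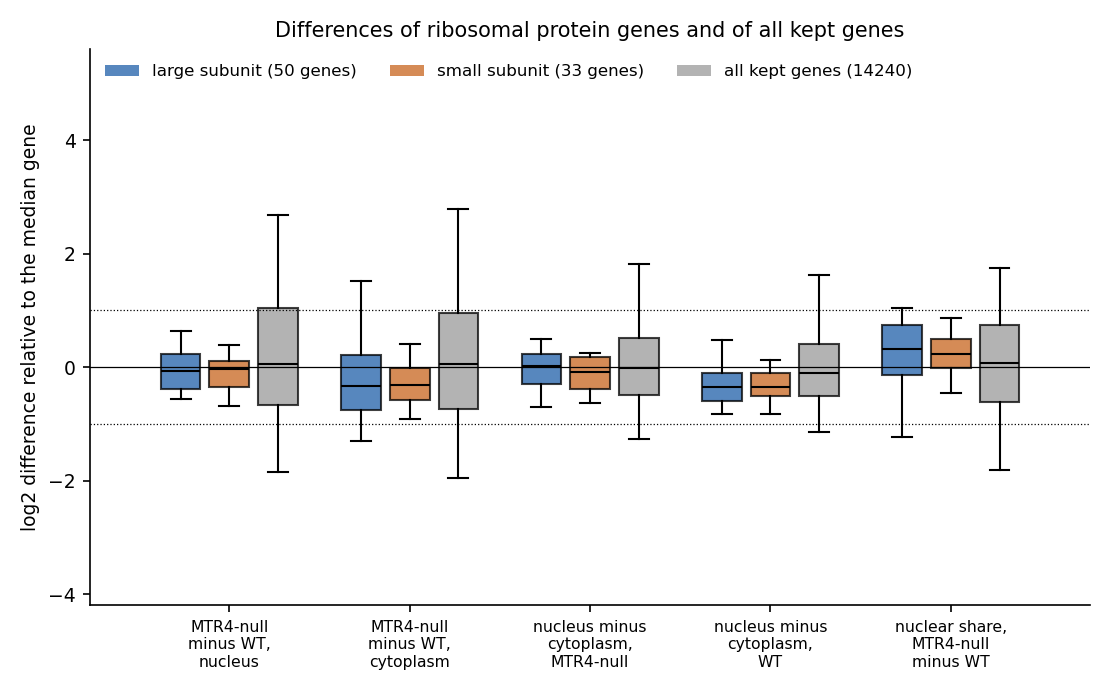
Log2 differences relative to the median gene (vertical axis) in 5 comparisons for large subunit genes (blue), small subunit genes (orange) and all 14240 kept genes, members included (grey). Boxes span the quartiles with the median as a line, whiskers reach the percentiles 5 and 95, and dotted lines mark 2-fold. The boxes of both subunits are narrower than those of all genes in every comparison. Most members are abundant genes, and genes of like level were not set beside them.

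The nuclear share, taken as the nucleus minus cytoplasm difference in MTR4-null less that in WT oocytes, uses all 4 columns. It was at least 2-fold higher for 5 of 83 members (Rpl26, Rpl3, Rps4y2, Rpl13 and Rpl30) and at least 2-fold lower for 6 (Rps27, Rpl34, Rpl7l1, Rpl22l1, Rpl39 and Rps27l), against 16.9% and 15.3% of all kept genes. The median was 0.24, against 0.07 over all kept genes, and 56 of 83 members lay above 0. Without the paralogues the medians were 0.43 for 46 large subunit genes and 0.23 for 31 small subunit genes. On the deposited values, where the median over all kept genes was 1.70, 77 members were higher and 1 lower, against 71.7% and 3.32% of all kept genes. Under scaling by totals without small RNA genes the members' median was -0.26, so its sign depends on the scale.

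Rpl13, a large subunit protein, had 634 in the MTR4-null nucleus, 291 in the WT nucleus, 1678 in the MTR4-null cytoplasm and 6571 in the WT cytoplasm, and its nuclear share was 1.09 higher. The nuclear share of Rpl3, whose values are given above, was 1.82 higher. Rpl39 had a nuclear share of -1.24, the lowest of a member that is neither a paralogue nor paired with a copy entry. Relative to the median gene, it reached 2-fold in no other comparison.

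For 64 members no comparison reached 2-fold. Their relative differences ran between -0.76 (Rps27a, which is made as a fusion with ubiquitin) and 0.64 (Rpsa) in the nucleus, and between -0.996 (Rps7) and 0.83 (Rpl12) in the cytoplasm. Their nuclear share ran between -0.82 (Rpl39l) and 0.90 (Rpl36). The medians of these 64 were -0.01 for the nuclei, -0.32 for the cytoplasms and 0.23 for the nuclear share. Members past 2-fold on both sides were left out here, which moves a median little by construction. The lower cytoplasmic median also rests on the scale chosen, as given above.

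Ribosomal components outside the naming rule were set beside the members. The median deposited value over kept members was 453 in the MTR4-null nucleus, 220 in the WT nucleus, 1425 in the MTR4-null cytoplasm and 3514 in the WT cytoplasm. Fau was above and Gnb2l1 below this median in every column. Fau, whose product is cleaved into a small subunit protein, had 1142 in the MTR4-null nucleus, 435 in the WT nucleus, 2625 in the MTR4-null cytoplasm and 8204 in the WT cytoplasm, with relative differences of 0.30 and -0.74. Gnb2l1, the scaffold protein Rack1 of the small subunit, had 134, 86.7, 542 and 1239 in the same column order, with relative differences of -0.47 and -0.29. Neither passed 2-fold between genotypes, and Fau did so in its nuclear share, at 1.04.

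Genes listed for mRNAs with a pyrimidine tract, not all of them translation genes, were set beside the members. The tract itself was not looked up for these genes. Of 18 such genes outside the rule, Fau and Gnb2l1 among them, 1 was at least 2-fold higher and 3 lower in the nucleus, and 2 were higher and 3 lower in the cytoplasm. Of all kept genes, 25.8% were higher and 16.2% lower in the nucleus, and 24.2% higher and 18.6% lower in the cytoplasm. Pabpc1, the cytoplasmic poly(A)-binding protein, had 77.5 in the MTR4-null nucleus, 8.15 in the WT nucleus, 244 in the MTR4-null cytoplasm and 116 in the WT cytoplasm, with relative differences of 2.12 and 1.94. Eef1a1, the elongation factor that brings tRNA to the ribosome, had 532, 408, 1719 and 7198 in the same column order, with relative differences of -0.71 and -1.16. The list's median was -0.25 for the nuclei and -0.22 for the cytoplasms.

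Among 44 genes of ribosome assembly, 7 were at least 2-fold higher and 8 lower in the nucleus, and 8 were higher and 13 lower in the cytoplasm, with medians of -0.36 and -0.36. The shares of all kept genes were 25.8% and 16.2% in the nucleus and 24.2% and 18.6% in the cytoplasm. Their interquartile range was 1.49 for the nuclei and 1.59 for the cytoplasms, against 0.55 and 0.90 for the ribosomal protein genes. Of 76 genes of the mitochondrial ribosome, 10 were higher and 9 lower in the nucleus, and 9 were higher and 21 lower in the cytoplasm, to be read against those shares. Their medians were -0.14 and -0.57, and their interquartile ranges 0.97 and 1.15. A lower cytoplasmic median relative to the median gene was thus also found outside the cytoplasmic ribosome.

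The tract at the promoter was set beside the differences as a description. The 35 members with a run of at least 8 C or T bases had a median relative difference of -0.12 for the nuclei and -0.35 for the cytoplasms. The 27 kept members whose entry lacked one had 0.10 and -0.01. Median levels on the log2 scale were 9.53 with a run and 9.45 without.

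Many ribosomal protein genes carry small nucleolar RNAs in their introns, which are released when the host pre-mRNA is processed and guide the modification of ribosomal RNA. In GENCODE M21, 30 members held 58 such RNAs, of which 31 have an entry in the table. Of these 31, 15 were above 0 in the MTR4-null nucleus, 23 in the WT nucleus, 8 in the MTR4-null cytoplasm and 7 in the WT cytoplasm. Smart-seq2 primes on poly(A), so such entries do not measure mature small nucleolar RNA.

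Snord100, in an intron of Rps12, had 9635 in the MTR4-null nucleus, 2362 in the WT nucleus, 2112 in the MTR4-null cytoplasm and 0 in the WT cytoplasm. Snord72, in Rpl37, was above 0 in the WT nucleus alone, at 2951. These are deposited values, not scaled between columns. Being per length, they can be high for a short RNA with few reads, and read depth is unknown. The 30 host genes themselves had a median relative difference of -0.20 for the nuclei and -0.38 for the cytoplasms, against 0.03 and -0.30 for the 53 kept members without an intronic small nucleolar RNA. Among the hosts none was at least 2-fold higher or lower in the nucleus, and in the cytoplasm 1 was higher and 6 lower. Among the 53 others, 3 were higher and 2 lower in the nucleus, and 4 higher and 3 lower in the cytoplasm. Of all kept genes, 25.8% were higher and 16.2% lower in the nucleus, and 24.2% were higher and 18.6% lower in the cytoplasm.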

How the data were processed

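Poly(A) RNA of MTR4-null and WT oocyte nuclei and cytoplasms was measured with Smart-seq2, per the labels' protocols. The authors deposited 1 table with 4 value columns and 23235 genes, named FPKM. The deposited values were treated as a score, since the column totals are unlike and the sources used here do not say how libraries were combined. The mm9 build, Cufflinks 2.2.1 and TopHat2 2.1.1 appear in the submitters' processing notes, without settings. The column named MTR4 was read as the null genotype, the other one in the labels. Read depth is unknown, so no counting interval was given.

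Columns were divided by 0.594 (MTR4-null nucleus), 0.279 (WT nucleus), 1.85 (MTR4-null cytoplasm) and 3.47 (WT cytoplasm), the median ratios to the geometric mean over 13328 kept genes above 0 in all 4. A pseudocount of 1 was added, which understates the differences of low genes. A difference of 2-fold was counted, over genes of at least 1 in at least 2 columns, a filter that a gene low in one genotype can pass through the other. With 1 column per genotype and compartment, the limma fit intended for single libraries could not be made, and no p-value was given. The calculation was tested on simulated data. Python 3.11.15, numpy 2.4.6, pandas 2.3.3 and matplotlib 3.10.9 were used.

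Members named with values were those past 2-fold in any comparison (up to 10 per direction), the 5 highest and 5 lowest by mean level, the paralogues beside their parents, the stalk genes and Rpsa, and any under the filter, besides Fau, Gnb2l1, Rpl36al and Skiv2l2; a gene under this rule is not reported here. Pabpc1, Eef1a1, Rplp2-ps1, Rps19-ps3, Inha, Pecam1 and the small nucleolar RNAs named were chosen after their values were seen, as were the copy entries. Copy entries are table entries sharing at least 25% of 50-base windows with a member in both directions. The members and gene lists were chosen with earlier results of these data known. Transcripts were GENCODE M21 (GRCm38) and promoters RefSeq GRCm38.p6; all 84 members matched GENCODE, 2 by an older symbol. The deposited table has no coordinates.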

Additional observations from a re-analysis of the deposited data

Results flagged for a closer look

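For 7 members the MTR4-null minus WT difference had opposite signs in nucleus and cytoplasm and the nuclear share differed at least 2-fold. With 1 value per genotype and compartment, these differences between the compartments were not tested. Rps27 was lower in the MTR4-null nucleus (-6.00) and higher in the MTR4-null cytoplasm (0.50), a difference of -6.50, and the sum with its copy Gm9846 gave 0.20. Rpl34 gave -2.72, and -0.09 with its copy. Rpl22l1 gave -1.52, and -1.46 with its copy. The others were Rpl39 with -1.24 and Rps27l with -1.05, both lower in the nucleus and higher in the cytoplasm, and Rps4y2 with 1.504 and Rpl13 with 1.09, both lower in the cytoplasm and near 0 in the nucleus (0.01 and 0.03).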

How the results depend on the processing

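The scale decides how many members pass 2-fold, as the deposited counts in the report show. No setting could be checked against replicates, and depth is unknown. No paired analysis was possible because the table holds 1 column per genotype and compartment; leaving out a replicate could not be done for the same reason. Of 39 member values past 2-fold, 28 kept direction and side of the threshold on the deposited values, 33 after quantile normalization and 32 after division by totals without small RNA genes. With a pseudocount of 10 this held for 35, and with a pseudocount of 0.1 for all 39. It also held for all 39 without the filter, with both compared columns at 1 or above and at 1.5-fold. By construction, the filter settings leave each value unchanged and 1.5-fold takes in every value past 2-fold, so these say nothing of robustness. Adding copy entries, chosen after seeing the data, left 27. The causes were not tested, beyond what each setting does by construction.

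In the nucleus, MTR4-null against WT, the counts of 3 higher and 2 lower members were 44 and 1 as deposited, 7 and 6 at 1.5-fold and 1 and 1 without paralogues; 1 was lower after quantile normalization and 1 with copy entries. In the cytoplasm, the 5 higher and 9 lower were 3 and 54 as deposited. There they were 9 and 7 after quantile normalization, 6 and 5 by totals, 7 and 28 at 1.5-fold and 3 and 8 without paralogues. For the MTR4-null nucleus against cytoplasm, the 1 higher and 2 lower were 0 and 80 as deposited, 3 and 12 at 1.5-fold, and 0 and 0 with copy entries. There 6 were lower after quantile normalization, 7 by totals, 1 with a pseudocount of 10 and 1 without paralogues. For WT, the 2 higher and 4 lower were 0 and 81 as deposited and 1 and 2 without paralogues. There 2 were lower with a pseudocount of 10 and 23 at 1.5-fold, and 1 was higher with copy entries. For the nuclear share, the 5 higher and 6 lower were 77 and 1 as deposited and 3 and 10 by totals. There 3 were higher after quantile normalization, 3 with copy entries and 28 at 1.5-fold, and 3 were lower without paralogues.

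Signs turned as follows. On the deposited values, Rpl34 in WT nucleus against cytoplasm was -0.82, and the nuclear shares of Rpl22l1, Rpl39 and Rps27l were 0.47, 0.76 and 0.95. With copy entries, Rps27 in the nucleus was 0.52 and its nuclear share 0.20, Rpl30 was 0.47 in the cytoplasm with a nuclear share of -1.18, Rpl34 was -0.15 in the cytoplasm and -0.034 in WT nucleus against cytoplasm, and Rpl26 was -0.10 in MTR4-null nucleus against cytoplasm.

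Medians over the members moved as well. As deposited they were 1.05 (nucleus), -1.23 (cytoplasm), -1.62 (MTR4-null nucleus against cytoplasm), -3.99 (WT) and 2.23 (nuclear share), and by totals without small RNA genes -0.24, -0.02, -0.33, -0.21 and -0.26 in the same order. After quantile normalization the cytoplasm median was -0.04, that of MTR4-null nucleus against cytoplasm -0.22 and that of the nuclear share 0.11. Without the 100 highest genes the members held 4.78% of the MTR4-null nucleus and 4.72% of the WT nucleus.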
